A study of Mus musculus with 12 samples.

Results

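The genes described here build sterols and fatty acids in the cell or carry the sterol signal that sets their level. They are 35 genes, listed by name and role among the 25189 genes of a count table. The rule uses no measured value, though the list was drawn up with earlier results of these data known. They comprise 6 genes of the mevalonate steps, 10 of the squalene and sterol steps, 4 that control the sterol response or carry sterol inside the cell, 3 of fatty acid synthesis, 6 desaturases and elongases, and 6 that respond to excess sterol, export it or store it. Of these, 33 had enough reads to be tested, among 13196 genes tested in all, and the desaturase genes Scd1 and Fads2 did not.

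RNA was sequenced from regulatory T cells (Treg), CD4+ T cells that restrain immune responses, sorted in a double sort from the spleens of 4-week-old female mice by a red (RFP) or yellow (YFP) fluorescent reporter. There were 3 genotypes with 4 libraries each. The WT cells carried Foxp3RFP, an intact allele of Foxp3, the transcription factor that defines the Treg lineage, tagged with the red reporter. The Foxp3-deficient cells carried Foxp3∆EGFPiCre, an allele that makes a green reporter and Cre recombinase from the Foxp3 locus in place of a working Foxp3 protein. The cells deficient for both Foxp3 and Rictor (here double-deficient) carried that allele with Rictor∆/∆, and Rictor is the subunit that defines the growth-signalling complex mTORC2. The labels name the mice of the double-deficient cells Foxp3∆EGFPiCre/+Rictor∆/∆R26YFP. The other mice are Foxp3∆EGFPiCre/RFPR26YFP, so that R26YFP, a yellow reporter turned on by Cre, was common to both. Reporter and genotype go together and cannot be told apart. The labels do not tie a library to a mouse, so WT and Foxp3-deficient cells may or may not come from the same mice, and p-values here measure only the spread between these libraries.

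As background, the mevalonate pathway turns acetyl units into isoprenoids, squalene is made from these and closed into the first sterol, and a series of demethylations, isomerisations and reductions then yields cholesterol. When sterol in the endoplasmic reticulum is low, the SREBP transcription factors are released from their membrane anchor and raise the genes of this pathway together with those of fatty acid synthesis. When sterol is in excess, oxidised sterols activate the LXR nuclear receptors, which raise the transporters that export cholesterol. Proliferating T cells are known to raise both synthesis arms.

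The promoter sequences below show the elements through which the 2 arms of this control are known to act. They are given because members with such an element had unlike values in some comparisons. The sequences are from RefSeq on GRCm38.p6, whose table held a window from 250 bases before to 50 bases after a transcript start for 27 of the 35 members. The 8 without a window, and so not searched, were Fdps, Fdft1, Sqle, Stard4, Scd1, Scd2, Fads1 and Abcg1. Each line runs 5′ to 3′ on the strand of its gene, and capitals mark the element. The first 3 lines hold the direct repeat bound by LXR, searched as GGTTACT and GGTCA with 3 free bases between them, which lies on the opposite strand of each gene and so appears reversed and complemented. The last 2 hold a sterol element, written TCACNCCAC or TCACCNCAC.
Abca1: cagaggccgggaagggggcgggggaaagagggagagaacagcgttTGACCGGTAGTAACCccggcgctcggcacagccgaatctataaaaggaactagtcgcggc
Srebf1: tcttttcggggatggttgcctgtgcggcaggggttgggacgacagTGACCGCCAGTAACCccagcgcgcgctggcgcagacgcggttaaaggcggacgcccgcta
Fasn: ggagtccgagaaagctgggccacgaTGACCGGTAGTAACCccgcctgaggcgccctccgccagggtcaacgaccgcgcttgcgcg
Hmgcs1: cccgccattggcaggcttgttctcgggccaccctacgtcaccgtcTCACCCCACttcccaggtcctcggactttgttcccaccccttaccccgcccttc
Hsd17b7: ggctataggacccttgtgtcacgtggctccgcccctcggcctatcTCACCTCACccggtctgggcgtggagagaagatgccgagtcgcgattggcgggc
The Abca1 stretch is chr4:53159903-53160007 on the minus strand, with the element beginning 67 bases before the RefSeq start. The Srebf1 stretch is chr11:60210594-60210698 on the minus strand, 182 bases before a start inside the gene, and the Fasn stretch is chr11:120824713-120824797 on the minus strand, 225 bases before the start. The Hmgcs1 stretch is chr13:119690169-119690267 on the plus strand, 137 bases before the start, and the Hsd17b7 stretch is chr1:169969269-169969367 on the minus strand, 117 bases before the start. None of the 5 stretches overlapped an annotated exon of GENCODE M21, and only that of Srebf1 lay within the span of its own gene.

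Both strands of every window were searched. The LXR repeat was present in the windows of 5 of 27025 genes (0.0185%), and 3 of those 5 were members. It was searched because these promoters are known to hold it, so its presence in them is a description. TCACNCCAC was present in 1.44% of genes and in 1 of the 27 members, Hmgcs1. TCACCNCAC was present in 1.51% of genes and in 2 members, Hmgcs1 and Hsd17b7, and the Hmgcs1 letters TCACCCCAC match both forms. CCAAT, the core bound by the NF-Y cofactor of SREBP, was present in 41.1% of genes, in 21 of the 27 members and in all 13 genes of the mevalonate, squalene and sterol steps that had a window. GGGCGG, the GC box bound by Sp1, was present in 38.2% of genes, in 20 members and in 12 of the same 13. The E-box CACGTG was present in 8.09% of genes and in 6 members. A match says only that the letters are in the window.

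The libraries held 15769737 to 26114044 reads counted in genes. Levels are given as CPM, the reads of a gene scaled to a fixed library total with edgeR's library factors, and a gene was called where its edgeR quasi-likelihood p, adjusted over all 13196 genes by the Benjamini-Hochberg method, was under 0.05. Foxp3 had 633 ± 75.8 CPM in WT (SD, n = 4), 118 ± 22.8 in Foxp3-deficient libraries and 102 ± 13.7 in double-deficient libraries. Rictor RNA had 148 ± 14.4 CPM in WT, 189 ± 31.2 in Foxp3-deficient libraries and 141 ± 12.6 in double-deficient libraries; a count over the whole gene does not check a deletion of part of it. The Foxp3-deficient libraries were the most spread, for the members as for all genes, with a median coefficient of variation of 18.3% against 8.19% in WT and 8.61% in double-deficient libraries; over all tested genes it was 18.7%, 11.4% and 12.2% in the same order. Of the 33 tested members, replicate 1 of that group was its highest library for 25 and replicate 3 its lowest for 17. The summed level of 8 B cell genes was 1270 to 1497 CPM in WT, 674 to 840.4 in Foxp3-deficient libraries and 772 to 941 in double-deficient libraries. Ighm gave nearly all of it, at 662 to 1455 CPM, Cd79b had 6.88 to 23.2 CPM and Cd22 0.396 to 15.4, while Pax5 was at 0 to 0.260. The summed level of 10 macrophage genes was 3.02 to 3.83 CPM in WT, 3.07 to 3.99 in Foxp3-deficient libraries and 4.21 to 5.54 in double-deficient libraries. Of these Fcgr3 had 0.0616 to 0.477, 0.465 to 1.23 and 1.78 to 2.62 CPM in the same order. Cd68 went the other way, at 1.703 to 2.586, 1.105 to 2.376 and 0.9407 to 1.358 CPM. Adgre1 was at 0 in WT and Foxp3-deficient libraries. The summed level of 5 CD8 and NK cell genes was 53.1 to 64.6, 37.2 to 141 and 70.7 to 108 CPM in the same order, with Nkg7 at 107 in Foxp3-deficient replicate 5. The summed level of 10 proliferation genes was 325 to 365 CPM in WT, 398 to 521 in Foxp3-deficient libraries and 434 to 525 in double-deficient libraries. The part of these in the results was not tested.

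Levels between genes were compared per kilobase of annotated exons. Acly, which makes the acetyl-CoA that feeds both arms in the cytosol, was the highest member at a mean of 99.3 CPM per kb over all libraries. Elovl5, an elongase of polyunsaturated fatty acids, followed at 94.1, and Srebf2, the SREBP that favours sterol genes, at 58.7. The lowest tested member was Acaca, the carboxylase of the committed step of fatty acid synthesis, at 0.221 CPM per kb, and Idi1 and Fdps, both in the mevalonate steps, had 0.699 and 1.098. For those 3 genes part of the sequence occurs elsewhere. Of the 50-base windows of Acaca's longest transcript, 52.6% were also found in transcripts of other genes. The same share was 30.5% for Idi1 and 11.7% for Fdps, and 26.7% of the exonic bases of Fdps overlap Gm43738 on the same strand. The low levels of these 3 genes are therefore uncertain. Such sharing was not particular to low members, with 30.7% for Fdft1 and 13.6% for Hmgcs1.

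Within pairs of related genes, a single gene carried nearly all of the RNA, apart from Srebf2 and Srebf1, which were closer. Nr1h2, which encodes LXR beta, stood at 57.6 CPM per kb against 0.387 for Nr1h3, which encodes LXR alpha, a ratio of 149. Srebf2 exceeded Srebf1 by 1.71 times per kb. The desaturase Fads1 had 4.47 CPM per kb and its neighbour Fads2 had 0.0407, with 0 to 13 reads of Fads2 in a library. The stearoyl-CoA desaturase Scd2 had 15.8 CPM per kb. Its copy Scd1 had no read in any WT or Foxp3-deficient library, which allows up to 0.0354 CPM over the WT group and 0.0389 over the Foxp3-deficient group at 3 reads, a limit for counting error only. Scd1 had 16 reads in double-deficient replicate 4, 1 read in replicate 5 and none in the other two libraries of that group.

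**Figure D1:**
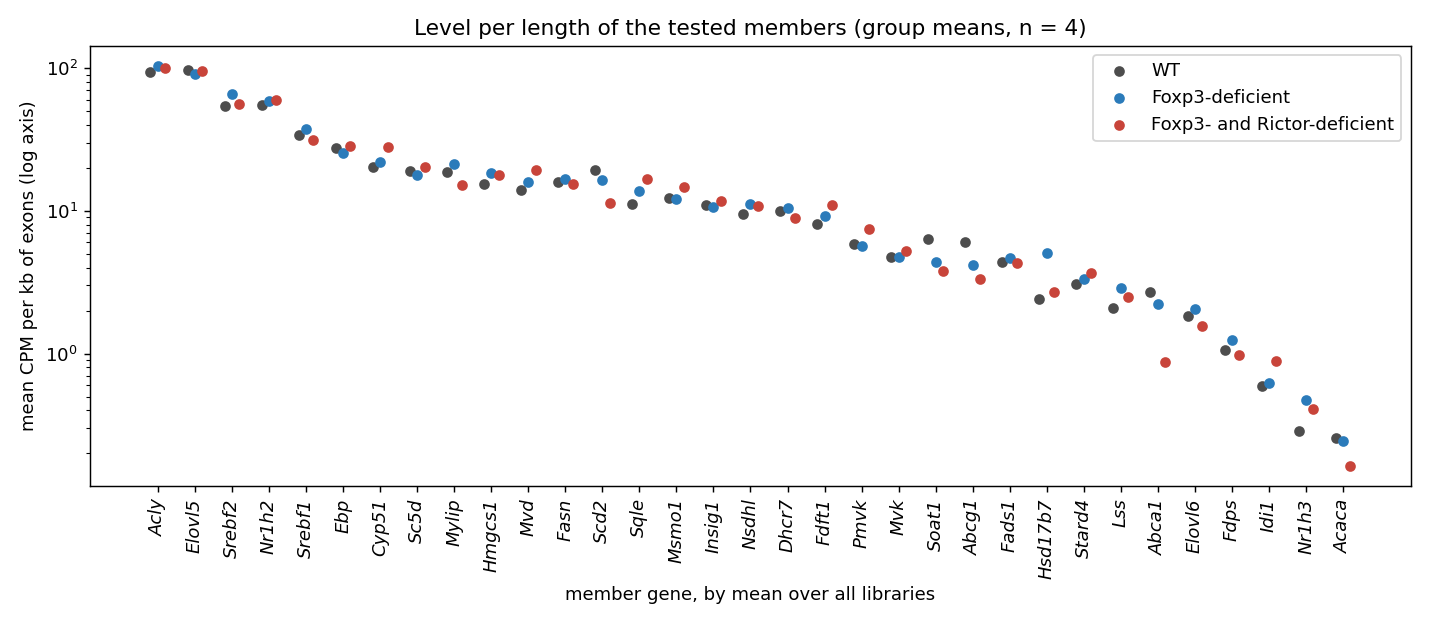
Mean level of each tested member in CPM per kb of annotated exons (log axis), with 1 point per genotype (mean of 4 libraries) and genes ordered by their mean over all libraries. The members span from 0.221 for Acaca to 99.3 for Acly, and for most genes the 3 points lie close together compared with the distance between genes.

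In Foxp3-deficient against WT cells, 5 of the 33 tested members passed the test, against 13.7% of all genes tested. Lss, Hsd17b7 and Srebf2 were higher (6.99% of all genes were), and Abcg1 and Soat1 were lower (6.74% of all genes were). The median log2 fold change of the 33 was 0.10, against 0.00 for all genes. The libraries of the 2 groups did not overlap for 5 members, against 17.8% of all genes. The share called, 15.2%, was near the background. The count of higher members was 1 without WT replicate 4 or 5, and that of lower members was 1 without WT replicate 3, 4 or 5. In sorted cells measured in bulk, fewer cells that express a gene and less RNA per cell cannot be told apart.

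In double-deficient against Foxp3-deficient cells, 5 of 33 members (15.2%) passed, against 27.2% of all genes tested. Cyp51 and Msmo1 were higher (13.9% of all genes were), and Hsd17b7, Abca1 and Mylip were lower (13.3% of all genes were). The median log2 fold change was -0.05, against -0.02 for all genes, and 5 members did not overlap, against 25% of all genes. The count of higher members rested on single libraries. That of lower members was 3 to 8 with a single library left out. By edgeR, 5 members were higher without Foxp3-deficient replicate 1, 1 was higher without WT replicate 4, Foxp3-deficient replicate 3 or 5, or double-deficient replicate 4, and 0 were higher without Foxp3-deficient replicate 4 or double-deficient replicate 3 or 5. In those last 3 fits 4, 5 and 3 members were higher at an unadjusted p under 0.05, and DESeq2 on all libraries called 4 higher. Of the lower members there were 8 without Foxp3-deficient replicate 3 and 5 without replicate 5. With both Foxp3-deficient replicates 1 and 3 left out, 5 were higher and 6 lower.

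In double-deficient against WT cells, 9 of 33 members (27.3%) passed, against 32.6% of all genes tested. Mvd, Fdft1, Sqle and Cyp51 were higher (15.8% of all genes were), and Scd2, Abca1, Abcg1, Mylip and Soat1 were lower (16.8% of all genes were). The median log2 fold change was 0.09, against -0.03 for all genes, and 14 members did not overlap, against 39.7% of all genes. Without double-deficient replicate 2, 3 members were lower. The comparisons share libraries in pairs: each group enters 2 of the 3.

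**Figure D2:**
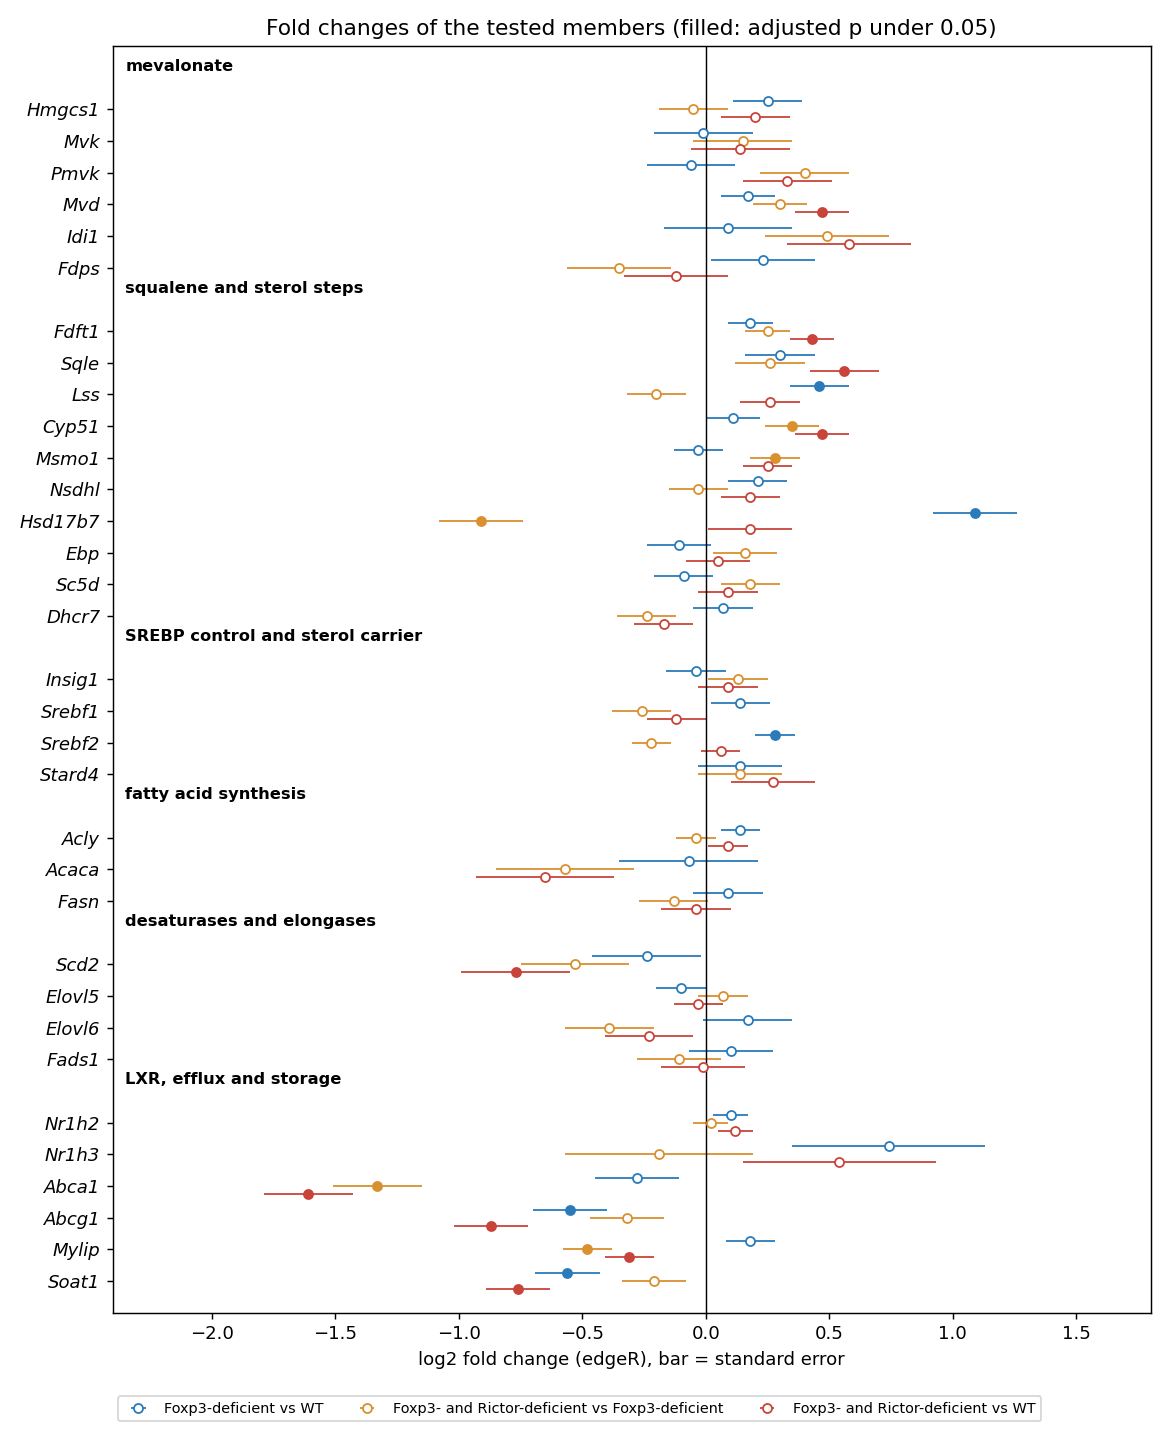
Log2 fold change (edgeR) of each tested member, grouped by role, with the standard error as a bar and 1 color per comparison; filled points had an adjusted p under 0.05. In the double-deficient against WT comparison the 4 filled points above 0 lie in the mevalonate and sterol rows, and 4 of the 5 below 0 lie in the LXR, efflux and storage rows.

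Of the 6 mevalonate genes, 0, 0 and 1 passed the edgeR test in the 3 comparisons, in the order given above, against 13.7%, 27.2% and 32.6% of all genes tested. In Foxp3-deficient against WT cells none passed at an unadjusted p under 0.05 and DESeq2 and limma-voom called none. In double-deficient against Foxp3-deficient cells 2 were at an unadjusted p under 0.05, with 1 called by DESeq2 and none by limma-voom. Against WT, the 1 gene called in double-deficient cells was higher, and the median log2 fold change was 0.27. The summed level of the 6 genes was 127 ± 12.1 CPM in WT, 144 ± 26.8 in Foxp3-deficient libraries and 152 ± 5.33 in double-deficient libraries.

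The member that passed was Mvd, the decarboxylase that makes isopentenyl diphosphate. Mvd had 28.2, 27.1, 25.4 and 23.9 CPM in WT replicates 1, 3, 4 and 5, 32.6, 25.9, 30.6 and 28.5 in Foxp3-deficient replicates 1, 3, 4 and 5, and 31.5, 36.1, 36.6 and 40.2 in double-deficient replicates 2, 3, 4 and 5. All double-deficient libraries were above all WT libraries, and the Foxp3-deficient libraries overlapped both. Mvd rose by 0.47 on the log2 scale (SE 0.11) in double-deficient against WT cells, 1.38-fold, with an edgeR adjusted p of 0.00581. With trends on gene length and GC content removed it was 0.29 and did not pass. Against Foxp3-deficient cells it was 0.30 (SE 0.11, edgeR adjusted p = 0.061), and it passed in 4 alternative fits at 0.30 to 0.40, those without Foxp3-deficient replicate 1 and without double-deficient replicate 2 among them. With the length and GC trends removed it was 0.04.

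The other 5 mevalonate genes did not pass in any comparison. Hmgcs1, the synthase that commits acetyl units to the pathway and the gene whose sterol element above matches both searched forms, had 63.2 to 78.2 CPM in WT, 64.2 to 116 in Foxp3-deficient libraries and 79.4 to 86.4 in double-deficient libraries. The kinases Mvk and Pmvk had group means of 12.6 to 14.04 and 9.65 to 12.7 CPM. Idi1, the isomerase, had means of 2.06 CPM in WT, 2.20 in Foxp3-deficient libraries and 3.098 in double-deficient libraries, and Fdps, which makes farnesyl diphosphate, had 4.47, 5.26 and 4.12. Pmvk against Foxp3-deficient cells passed only without Foxp3-deficient replicate 3, and was 0.40 (SE 0.18, edgeR adjusted p = 0.106) with all libraries.

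Of the 10 genes of the squalene and sterol steps, 2 rose from WT to Foxp3-deficient cells and 3 rose from WT to double-deficient cells, where 6.99% and 15.8% of all genes tested were higher. None was lower by edgeR, DESeq2 or limma-voom or at an unadjusted p under 0.05, where edgeR called 6.74% and 16.8% of all genes lower. From Foxp3-deficient to double-deficient cells 2 rose and 1 fell, against 13.9% and 13.3% of all genes. The median log2 fold changes were 0.14, 0.21 and 0.17 in the same order. In double-deficient against WT cells 9 of the 10 were above 0, as were 6277 of the 13196 genes tested. Their summed level was 538 ± 32.8 CPM in WT, 582 ± 67.5 in Foxp3-deficient libraries and 640 ± 18.4 in double-deficient libraries.

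Hsd17b7, which reduces the sterol ketone during removal of the methyl groups, lies at chr1:169949535-169969241 on the minus strand (GRCm38). Hsd17b7 had 13.2, 13.1, 9.95 and 12.9 CPM in WT replicates 1, 3, 4 and 5. It had 30.04, 23.5, 26.9 and 23.7 CPM in the Foxp3-deficient libraries, in the same order. It had 16.8, 9.91, 15.6 and 13.1 CPM in double-deficient replicates 2, 3, 4 and 5. Every Foxp3-deficient library was above every library of the other groups, and WT and double-deficient libraries overlapped. Hsd17b7 rose by 1.09 on the log2 scale (SE 0.17) in Foxp3-deficient against WT cells, 2.13-fold, with an edgeR adjusted p of 0.00026. It fell by 0.91 (SE 0.17) in double-deficient against Foxp3-deficient cells, 1.88-fold, with an edgeR adjusted p of 0.00165. Double-deficient against WT cells gave 0.18 (SE 0.17, edgeR adjusted p = 0.435). No 50-base window of its longest transcript occurred in another gene, and both calls held in each of the 23 alternative fits.

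Lss, the cyclase that forms lanosterol, had 22.8, 24.7, 20.8 and 21.3 CPM in WT, 36.3, 32.0, 27.6 and 27.3 in Foxp3-deficient libraries and 29.7, 25.6, 26.3 and 25.5 in double-deficient libraries. All libraries of both deficient groups were above all WT libraries. Lss rose by 0.46 (SE 0.12, edgeR adjusted p = 0.0161) in Foxp3-deficient against WT cells, and was 0.26 (SE 0.12, edgeR adjusted p = 0.107) in double-deficient against WT cells. The first of these did not pass without WT replicate 4, without WT replicate 5 or with Foxp3-deficient replicates 1 and 3 both left out, at 0.30 to 0.44. The second was 0.53 and passed with the length and GC trends removed.

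Fdft1, Sqle and Cyp51 were called higher in double-deficient than in WT cells. Fdft1 (squalene synthase) had 33.5, 32.3, 35.4 and 36.0 CPM in WT, 43.5, 38.7, 37.7 and 35.8 in Foxp3-deficient libraries and 47.9, 44.8, 44.6 and 48.0 in double-deficient libraries. The double-deficient libraries were above every other library, at 0.43 against WT (SE 0.09, edgeR adjusted p = 0.0027). Against Foxp3-deficient cells Fdft1 was 0.25 (SE 0.09, edgeR adjusted p = 0.0553) and passed in 6 alternative fits, that without Foxp3-deficient replicate 1 among them. Reads of Fdft1 are uncertain in part: 18.3% of its exonic bases overlap Ctsb on the opposite strand and whether the counting used strand is not given in the sources used here. Ctsb did not pass in any comparison, at -0.09 against WT.

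Sqle, the epoxidase that oxidises squalene, had 71.4, 51.6, 66.9 and 59.0 CPM in WT, 106, 70.5, 61.8 and 69.0 in Foxp3-deficient libraries and 86.4, 95.4, 90.1 and 96.2 in double-deficient libraries. Foxp3-deficient replicate 1 was the highest of all 12 libraries, and the double-deficient libraries lay above all WT libraries. Sqle rose by 0.56 in double-deficient against WT cells (SE 0.14, 1.48-fold, edgeR adjusted p = 0.00796). Against Foxp3-deficient cells it was 0.26 (SE 0.14, edgeR adjusted p = 0.182), and it passed in 4 alternative fits at 0.44 to 0.50, that without Foxp3-deficient replicate 1 among them.

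Cyp51, the lanosterol demethylase, had 92.0, 84.4, 89.0 and 94.1 CPM in WT, 123, 89.6, 88.9 and 87.4 in Foxp3-deficient libraries and 112, 137, 114 and 133 in double-deficient libraries. Foxp3-deficient replicate 1 stood among the double-deficient values and the other three of its group among the WT values. Cyp51 rose by 0.47 in double-deficient against WT cells (SE 0.11, edgeR adjusted p = 0.00533) and by 0.35 against Foxp3-deficient cells (SE 0.11, edgeR adjusted p = 0.0292). The second was 0.31 to 0.35 and did not pass in 7 of 23 alternative fits: with only these groups fitted, with the length and GC trends removed, and without Foxp3-deficient replicate 3, 4 or 5 or double-deficient replicate 3 or 5. Of its exonic bases 3.76% overlap Akap9 on the opposite strand, and Akap9 fell by 0.54 against Foxp3-deficient cells (edgeR adjusted p = 0.00256).

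Msmo1, the methyl sterol oxidase, had 83.4, 69.6, 74.6 and 75.6 CPM in WT, 88.0, 65.0, 69.0 and 75.2 in Foxp3-deficient libraries and 89.96, 87.5, 93.9 and 90.5 in double-deficient libraries. The double-deficient libraries were above all WT libraries and overlapped Foxp3-deficient replicate 1. Msmo1 rose by 0.28 against Foxp3-deficient cells (SE 0.10, edgeR adjusted p = 0.0378) and was 0.25 against WT (SE 0.10, edgeR adjusted p = 0.0512). The first was 0.23 to 0.31 and did not pass in 10 of 23 alternative fits, those without WT replicate 4, without Foxp3-deficient replicate 3, 4 or 5 and without each double-deficient library among them. The second passed in 11.

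The remaining sterol genes, Nsdhl (a decarboxylase), Ebp (the sterol isomerase), Sc5d (a sterol desaturase) and Dhcr7 (the reductase of the last step), did not pass in any comparison. Nsdhl had 21.98 to 32.7 CPM in WT, 31.0 to 33.0 in Foxp3-deficient libraries and 29.1 to 33.8 in double-deficient libraries, and Sc5d had 79.3 to 106, 67.2 to 104 and 89.1 to 106. Ebp had 61.0 to 67.1 CPM in WT, 43.4 to 75.6 in Foxp3-deficient libraries and 62.4 to 69.8 in double-deficient libraries. Dhcr7 was the sterol gene with a log2 fold change below 0 in double-deficient against WT cells, at -0.17 (SE 0.12, edgeR adjusted p = 0.273), and its double-deficient libraries, 50.1 to 52.9 CPM, lay below the WT libraries, 53.2 to 63.5. Dhcr7 against Foxp3-deficient cells passed without Foxp3-deficient replicate 3, and Ebp without replicate 5.

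**Figure D3:**
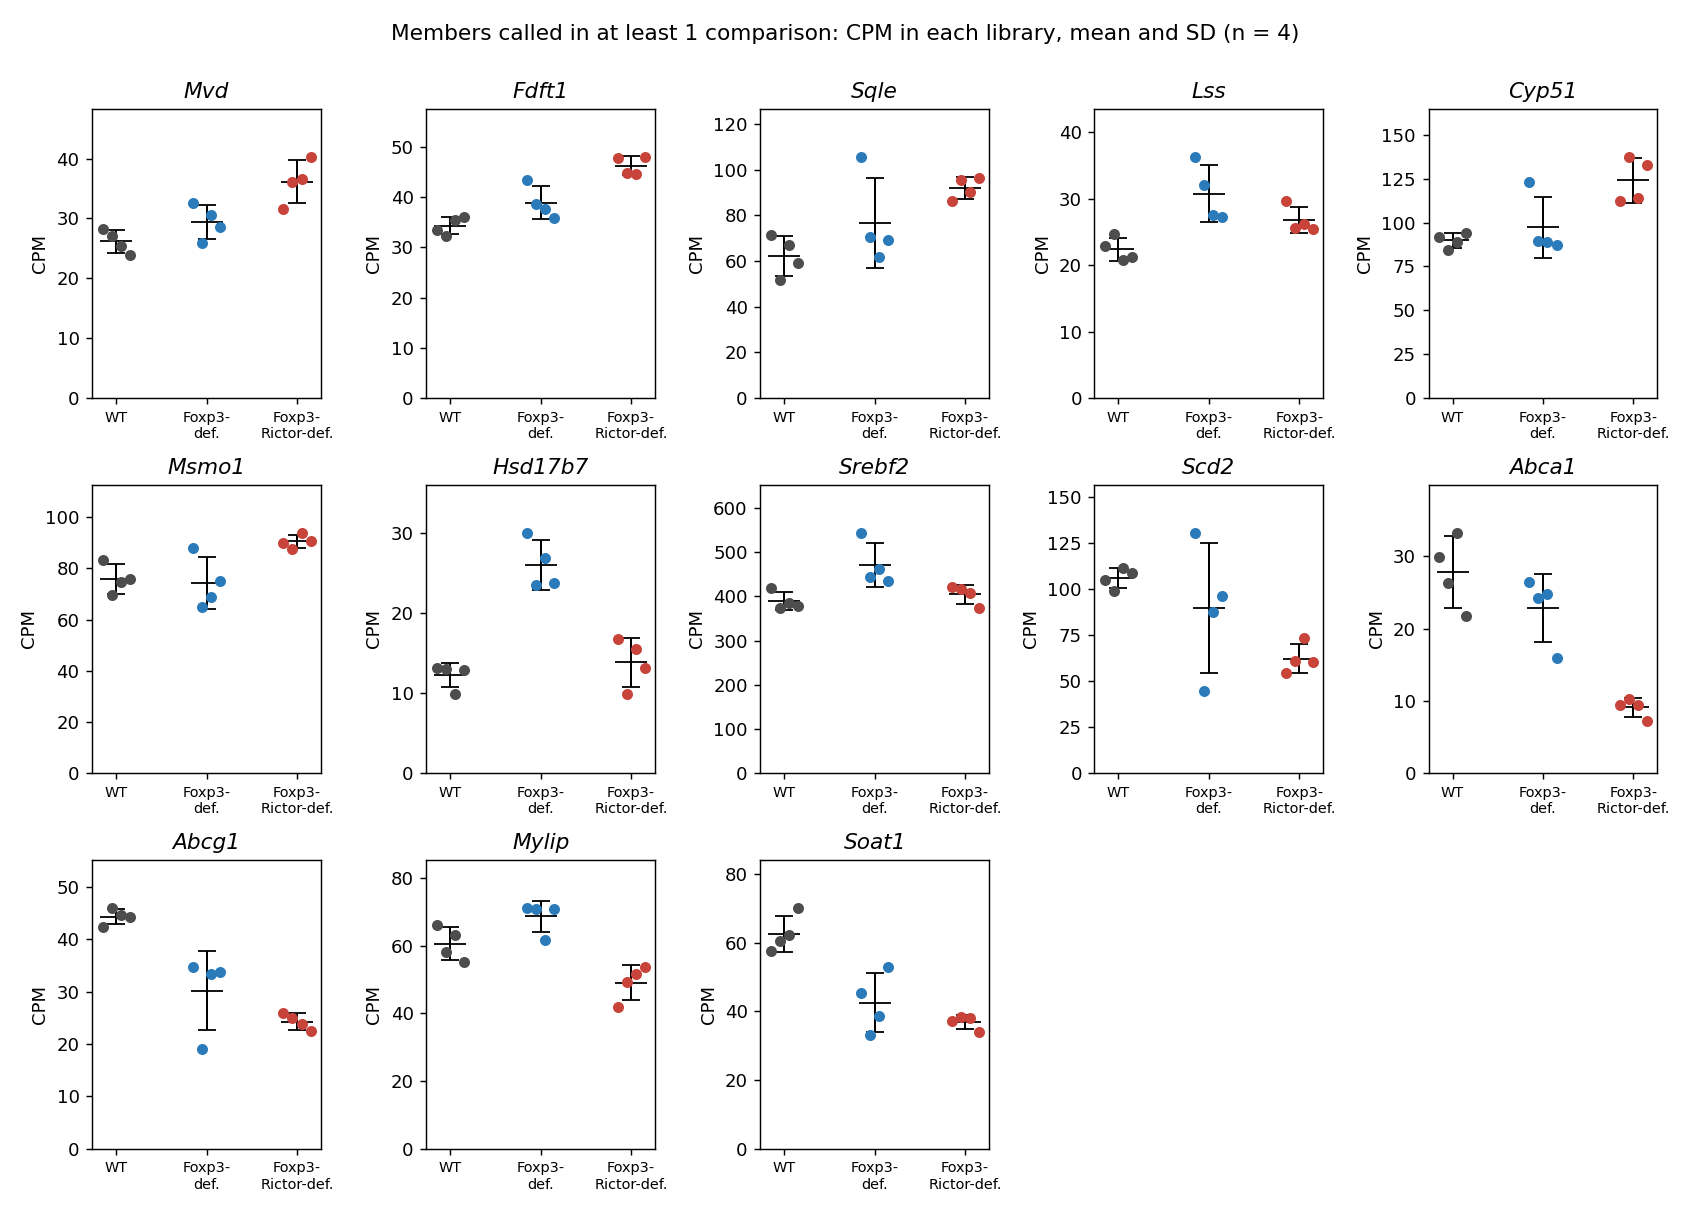
CPM in each library for the 13 members called in at least 1 comparison, 1 panel a gene, with libraries as points by genotype and the mean of 4 libraries with its SD. Hsd17b7 is high in the Foxp3-deficient libraries alone, at 23.5 to 30.04 CPM, and Abca1 is low in the double-deficient libraries alone, at 7.22 to 10.2 CPM.

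Among the genes that control the sterol response, Srebf2 rose in Foxp3-deficient cells. Srebf2 had 418, 374, 385 and 378 CPM in WT, 544, 443, 462 and 434 in Foxp3-deficient libraries and 421, 417, 407 and 374 in double-deficient libraries. Every Foxp3-deficient library was above every library of the other groups, and WT and double-deficient libraries overlapped, the same order as for Hsd17b7. The difference from WT was 0.28 (SE 0.08, 1.21-fold, edgeR adjusted p = 0.0322). It did not pass in 9 of 23 alternative fits, at 0.20 to 0.29: with no low-count filter, with only these groups fitted, without WT replicate 3, 4 or 5, Foxp3-deficient replicate 1 or 4 or double-deficient replicate 4, and with Foxp3-deficient replicates 1 and 3 both left out. Double-deficient against Foxp3-deficient cells gave -0.22 (SE 0.08, edgeR adjusted p = 0.0568). This difference passed by DESeq2, with the stricter low-count filter, and without Foxp3-deficient replicate 3 or 5. With the length and GC trends removed that difference was 0.04 and did not pass, while double-deficient against WT cells, 0.06 (SE 0.08, edgeR adjusted p = 0.609) as fitted, became 0.25 and passed.

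Srebf1, the SREBP that favours fatty acid genes, did not pass in any comparison and had 158 to 227 CPM in WT, 190 to 246 in Foxp3-deficient libraries and 153 to 203 in double-deficient libraries. Insig1, which holds the SREBP precursor in the endoplasmic reticulum and is itself an SREBP target, had means of 34.0, 33.0 and 36.2 CPM in the 3 genotypes, in the order WT, Foxp3-deficient, double-deficient. Stard4, a soluble sterol carrier, had means of 17.0, 18.7 and 20.6 CPM. Neither passed.

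None of the 3 fatty acid synthesis genes passed the edgeR test in any comparison, none was called by DESeq2 or limma-voom, and 1, Acaca against WT in double-deficient cells, had an unadjusted p under 0.05. Acly had 484 to 502 CPM in WT, 476 to 602 in Foxp3-deficient libraries and 473 to 585 in double-deficient libraries. Fasn, the fatty acid synthase, had 158 to 190 CPM in WT, 133 to 240 in Foxp3-deficient libraries and 147 to 193 in double-deficient libraries, and the lowest and the highest of all 12 were Foxp3-deficient replicates 3 and 1. Acaca had means of 4.39, 4.16 and 2.80 CPM and a log2 difference of -0.65 (SE 0.28, edgeR adjusted p = 0.0894) in double-deficient against WT cells. That difference passed with only these groups fitted, without Foxp3-deficient replicate 3, and with Foxp3-deficient replicates 1 and 3 both left out. Against Foxp3-deficient cells Acaca was -0.57 (SE 0.28, edgeR adjusted p = 0.142). It passed there without Foxp3-deficient replicate 3, at -0.77. With the length and GC trends removed Acly passed as higher in double-deficient against WT cells, at 0.19 in place of 0.09.

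Of the 4 desaturases and elongases tested, 1 was called, Scd2, which makes monounsaturated fatty acids. Scd2, at chr19:44293674-44306864, had 105, 98.9, 112 and 109 CPM in WT, 131, 44.9, 87.8 and 96.4 in Foxp3-deficient libraries and 54.5, 61.1, 73.2 and 60.3 in double-deficient libraries. The double-deficient libraries were below all WT libraries, and the Foxp3-deficient libraries spanned the whole range. Scd2 fell by 0.77 in double-deficient against WT cells (SE 0.22, 1.70-fold, edgeR adjusted p = 0.0188). It did not pass with no low-count filter, with the replicate number as a block, with that block and the length and GC trends removed, or without double-deficient replicate 2 or 5, at -0.75 to -0.55. Against Foxp3-deficient cells it was -0.53 (SE 0.22, edgeR adjusted p = 0.0926) and passed without Foxp3-deficient replicate 3.

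Elovl5 had means of 341, 318 and 334 CPM in the same order of genotypes. Elovl6, which lengthens saturated fatty acids, had 11.8, 13.2 and 10.1 CPM, and Fads1 had 21.1, 22.6 and 20.9 CPM. None of these passed in any comparison, though Elovl6 against Foxp3-deficient cells passed without Foxp3-deficient replicate 5.

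The genes of sterol excess that passed were all lower. Of 6 genes, 2 fell from WT to Foxp3-deficient cells, 2 from Foxp3-deficient to double-deficient cells and 4 from WT to double-deficient cells, where 6.74%, 13.3% and 16.8% of all genes tested were lower. In these 6 genes edgeR, DESeq2 and limma-voom called none higher in any comparison, where edgeR called 6.99%, 13.9% and 15.8% of all genes higher. At an unadjusted p under 0.05 edgeR and limma-voom had none higher either, and DESeq2 had 1, in double-deficient against WT cells. The median log2 fold change in double-deficient against WT cells was -0.54, against -0.03 for all genes. Their summed level was 380 ± 10.1 CPM in WT, 362 ± 8.28 in Foxp3-deficient libraries and 320 ± 2.78 in double-deficient libraries. A large part of each sum was Nr1h2, which did not pass, with means of 183.7, 196.5 and 199.4 CPM in the same order.

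Abca1, which exports cholesterol to lipid-poor apolipoprotein, lies at chr4:53030787-53159895 on the minus strand. Abca1 had 29.9, 26.3, 33.3 and 21.7 CPM in WT replicates 1, 3, 4 and 5. It had 26.4, 24.3, 24.9 and 16 CPM in the Foxp3-deficient libraries. It had 9.46, 10.2, 9.51 and 7.22 CPM in double-deficient replicates 2, 3, 4 and 5. Every double-deficient library was below every other library, and the WT and Foxp3-deficient libraries overlapped. Abca1 fell by 1.61 on the log2 scale (SE 0.18) in double-deficient against WT cells, 3.05-fold, with an edgeR adjusted p of 1.07e-05. It fell by 1.33 (SE 0.18) in double-deficient against Foxp3-deficient cells, 2.51-fold, with an edgeR adjusted p of 0.000236. Foxp3-deficient against WT gave -0.28 (SE 0.17, edgeR adjusted p = 0.344). Both calls held in all 23 alternative fits, at -1.71 to -1.33 against WT and -1.46 to -1.02 against Foxp3-deficient cells.

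Abcg1, which exports cholesterol to larger particles, lies at chr17:31057675-31117988. Abcg1 had 42.5, 46.0, 44.6 and 44.4 CPM in WT, 34.7, 19.0, 33.5 and 33.8 in Foxp3-deficient libraries and 26.04, 24.96, 23.8 and 22.4 in double-deficient libraries. WT was above both deficient groups in every library, and Foxp3-deficient replicate 3 fell below all double-deficient libraries. Abcg1 fell by 0.55 in Foxp3-deficient against WT cells (SE 0.15, edgeR adjusted p = 0.0228) and by 0.87 in double-deficient against WT cells (SE 0.15, edgeR adjusted p = 0.000638). The first did not pass with only these groups fitted or without WT replicate 3, 4 or 5, at -0.55 to -0.54, while the second held in all alternative fits. Between the deficient genotypes it was -0.32 (SE 0.15, edgeR adjusted p = 0.134) and passed without Foxp3-deficient replicate 3.

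Soat1, which esterifies cholesterol for storage, lies at chr1:156424525-156474331. Soat1 had 57.7, 60.5, 62.1 and 70.0 CPM in WT, 45.4, 33.2, 38.6 and 53.0 in Foxp3-deficient libraries and 37.3, 38.4, 38.0 and 33.9 in double-deficient libraries. Again WT was above both deficient groups in every library. Soat1 fell by 0.56 in Foxp3-deficient against WT cells (SE 0.13, edgeR adjusted p = 0.00658) and by 0.76 in double-deficient against WT cells (SE 0.13, edgeR adjusted p = 0.0004), and both held in all alternative fits. Between the deficient genotypes the difference was -0.21 (SE 0.13, edgeR adjusted p = 0.234).

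Mylip, an LXR target that marks lipoprotein receptors for degradation, lies at chr13:45389742-45412022. Mylip had 66.2, 58.0, 63.0 and 55.2 CPM in WT, 71.1, 70.9, 61.6 and 70.9 in Foxp3-deficient libraries and 41.8, 49.2, 51.5 and 53.8 in double-deficient libraries. The double-deficient libraries were below every other library. Mylip fell by 0.48 in double-deficient against Foxp3-deficient cells (SE 0.10, edgeR adjusted p = 0.00337), which held in all alternative fits, and by 0.31 against WT (SE 0.10, edgeR adjusted p = 0.0275). The second was -0.30 to -0.20 and did not pass in 7 of 23, those without WT replicate 1 or 4 or double-deficient replicate 2 or 3 and those with the replicate block among them.

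The receptors themselves did not pass in any comparison. Nr1h2 had 184 ± 9.17 CPM in WT, 196 ± 8.42 in Foxp3-deficient libraries and 199 ± 3.38 in double-deficient libraries. Nr1h3 had means of 0.715, 1.18 and 1.03 CPM, with a log2 difference of 0.74 (SE 0.39, edgeR adjusted p = 0.258) in Foxp3-deficient against WT cells. Of the 27 members with a promoter window, 3 hold the LXR repeat. These had unlike values in double-deficient against WT cells: -1.61 for Abca1, -0.12 (SE 0.12) for Srebf1 and -0.04 (SE 0.14) for Fasn. The Srebf1 repeat lies before a start inside the gene, while the count covers the whole gene. The value of -0.12 is therefore not that of this start alone. The 15 letters of the repeat are identical in Abca1 and Fasn. Whether the repeat takes part in these differences was not tested. The 2 members found with a sterol element had unlike values in Foxp3-deficient against WT cells, with 1.09 for Hsd17b7 and 0.25 (SE 0.14, edgeR adjusted p = 0.274) for Hmgcs1. In double-deficient against WT cells their values were alike, at 0.18 (SE 0.17) for Hsd17b7 and 0.20 (SE 0.14) for Hmgcs1.

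A further list of genes of the same pathways held 44 genes, of which 39 were tested. In Foxp3-deficient against WT cells 3 were higher and 2 lower (12.8%, against 13.7% of all genes tested). Acss2, which makes acetyl-CoA from acetate, rose by 0.40 (edgeR adjusted p = 0.00415), as did Rxrb, the partner receptor of LXR, by 0.32 (edgeR adjusted p = 0.0133) and Lipa, the lysosomal lipase that frees cholesterol from its esters, by 0.31 (edgeR adjusted p = 0.0256). Dgat2, which completes triglycerides, fell from 11.7 ± 0.712 CPM in WT to 2.72 ± 0.418, by 2.11 on the log2 scale (edgeR adjusted p = 6.82e-05). Hacd3, a dehydratase of fatty acid elongation, fell from 236 ± 21.1 to 121 ± 33.7 CPM, by 0.97 (edgeR adjusted p = 0.000625).

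In double-deficient against Foxp3-deficient cells 2 of the 39 were higher and 4 lower (15.4%, against 27.2% of all genes tested). Lbr, a sterol reductase of the nuclear envelope, rose by 0.36 (edgeR adjusted p = 0.00989) and Hsd17b12, a reductase of elongation, by 0.32 (edgeR adjusted p = 0.0217). Ncor1, a corepressor of nuclear receptors, fell by 0.56 (edgeR adjusted p = 0.00149), Mbtps1, the protease that makes the first cut in the SREBP precursor, by 0.31 (edgeR adjusted p = 0.0094), and Gpam, which starts glycerolipid synthesis, by 0.57 (edgeR adjusted p = 0.0192). Scap, the escort of SREBP, was the fourth.

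In double-deficient against WT cells 7 were higher and 8 lower (38.5%, against 32.6% of all genes tested). On the log2 scale, Rxrb rose by 0.47 (edgeR adjusted p = 0.000571), Lbr by 0.47 (edgeR adjusted p = 0.00104) and Acss2 by 0.40 (edgeR adjusted p = 0.00243). Dgat2 was 3.53-fold lower (edgeR adjusted p = 0.000183), Hacd3 2.30-fold lower (edgeR adjusted p = 7.99e-05) and Gpam 1.65-fold lower (edgeR adjusted p = 0.00404). The median of the 39 was 0.02, 0.00 and 0.04 on the log2 scale in the 3 comparisons.

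Fold changes over all genes moved with gene length when the double-deficient libraries were compared. From the shortest to the longest of 5 length classes, the median log2 fold change ran from 0.247 to -0.222 against Foxp3-deficient cells and from 0.146 to -0.202 against WT, while it ran from -0.099 to 0.034 between Foxp3-deficient and WT cells. The mevalonate genes have a median exonic length of 3090 bases and the LXR, efflux and storage genes 5326, with Abca1 at 10363 and Soat1 at 9791. Reads that mapped to more than 1 place were 31.1 to 33.1% in double-deficient libraries, 25.9 to 28.5% in WT and 23.0 to 29.5% in Foxp3-deficient libraries. With the length and GC trends removed, 7 members were higher and 5 lower in double-deficient against WT cells, in place of 4 and 5.

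**Figure D4:**
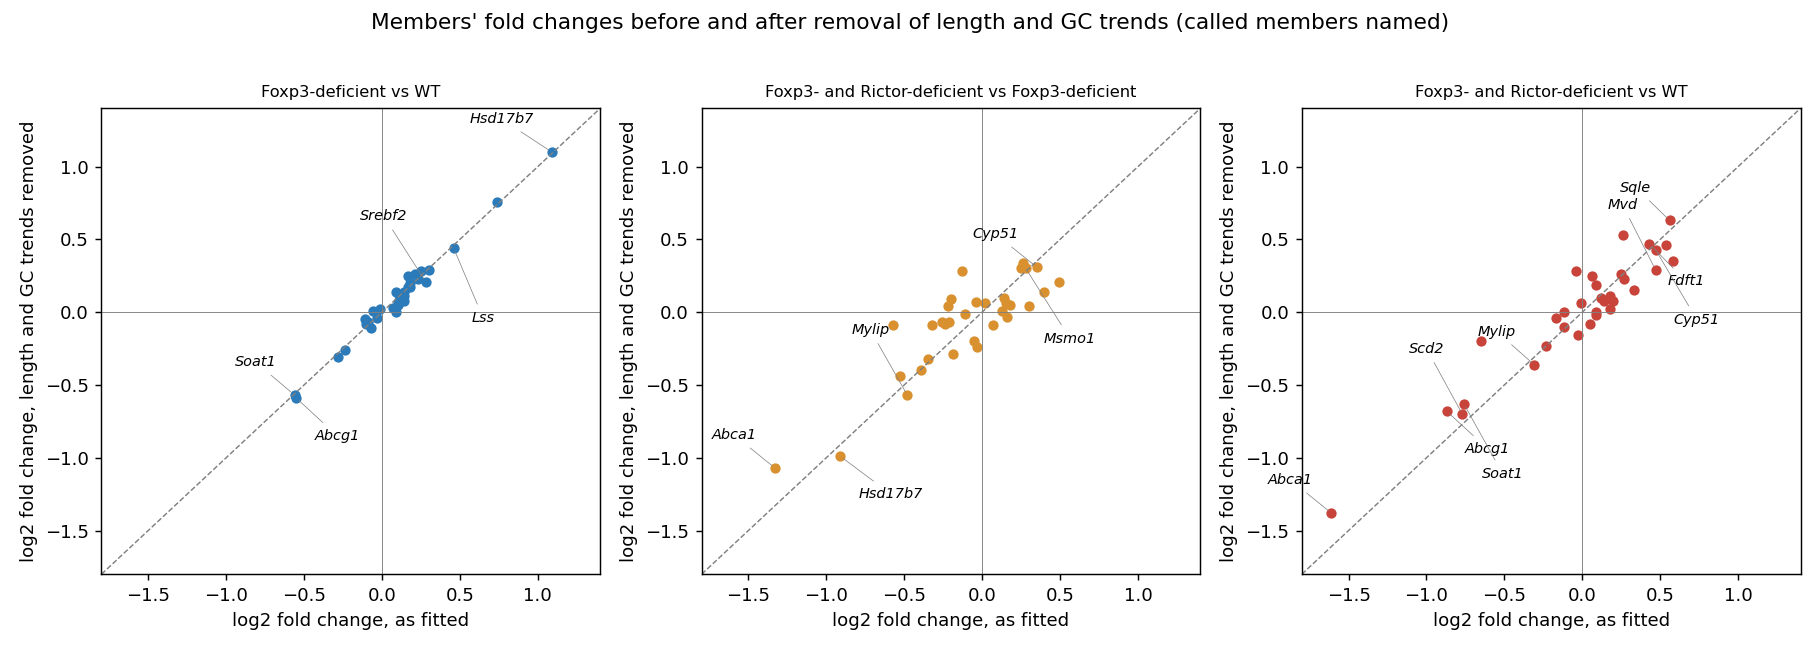
Log2 fold change of each tested member as fitted (horizontal axis) and with the trends on gene length and GC content removed (vertical axis), 1 panel a comparison, with equality as a dashed line and the called members named. Abca1 stays the lowest member in both double-deficient comparisons, and Mvd falls from 0.47 to 0.29 against WT.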

How the data were processed

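The authors deposited raw read counts per gene for 12 libraries, made from SMART-Seq v4 cDNA. Alignment to GRCm38 with STAR 2.5.1b and counting with HTSeq are named in the submitters' processing notes; not given in the sources used here are HTSeq's version, the Gencode release and the use of strand. Rows that name no gene stayed out of library sizes; reads with no feature were 4.63 to 9.27% and reads not uniquely placed 23.0 to 33.1% of a library.

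From these counts, edgeR 4.0.16 (R 4.3.3) was run once on all libraries: TMM scaling, filterByExpr, a robust quasi-likelihood fit with genotype as the only term, and Benjamini-Hochberg adjustment over 13196 genes, with calls under 0.05. The common biological coefficient of variation was 17.4%. The labels name no batch. The fit was tested on simulated data. SE is the log2 fold change over the square root of F. GENCODE M21 gave lengths and positions for 97.5% of the table's genes.

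Alternatives were RLE and upper quartile scaling, no filter and a stricter one, DESeq2 1.42.0, limma-voom 3.58.1, length and GC trends removed (mgcv 1.9.3), a block on the replicate number, a fit of only the groups compared, each library left out, and Foxp3-deficient 1 and 3 both left out. All members are named by role, with every library's value for those called; of the further pathway genes, up to 3 called in each direction with the smallest adjusted p, Scap, Ctsb, Akap9 and Rictor being added afterwards. The members and lists were chosen with earlier results of these data known.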

Additional observations from a re-analysis of the deposited data

Results flagged for a closer look

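Of 103 groups of 4 libraries (members by genotype), 9 had a library far from the other three by Dixon's test, which chance gives in about 1 group in 20. In WT, Hsd17b7 had 9.95 CPM in replicate 4 against 12.9 to 13.2 in the others, and Acly had 483.7 CPM in replicate 3 against 500.0 to 502. In the Foxp3-deficient group, Cyp51 had 123.4 CPM in replicate 1 against 87.4 to 89.6, and Fads2 had 0.704 CPM in replicate 1 against 0 to 0.103. In the same group Abcg1 had 19.03 CPM in replicate 3 against 33.5 to 34.7, and Mylip had 61.6 CPM in replicate 4 against 70.9 to 71.1. In the double-deficient group, Idi1 had 4.38 CPM in replicate 5 against 2.48 to 2.77, Acaca had 3.88 CPM in replicate 3 against 2.38 to 2.53, and Scd1 had 0.749 CPM in replicate 4 against 0 to 0.0547.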

How the results depend on the processing

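No call of a member changed direction under any alternative. The cause of the changes below was not tested unless the alternative's own construction shows it. In Foxp3-deficient against WT cells the higher members numbered 1 with Foxp3-deficient 1 and 3 left out (1 to 3 with a single library left out), and lower members 1 with only the groups compared (1 to 2). Against Foxp3-deficient cells, the higher members in double-deficient cells numbered 1 with no filter, 4 by DESeq2, 0 by edgeR with only the groups compared, 4 with the replicate block and 5 with both libraries out (0 to 5 with a single library left out), and lower members 6 with both out (3 to 8). Against WT cells they numbered 7 with the length and GC trends removed, with or without the block (4 to 5 with a single library left out), and lower members 3 with no filter and 3 with the block, with or without the trends (3 to 6).

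Further pathway genes in Foxp3-deficient against WT cells numbered 1 to 3 higher and 2 to 2 lower with a single library left out. In double-deficient against Foxp3-deficient cells they numbered 4 higher by DESeq2, 1 with only the groups compared and 1 with the replicate block, with or without the trends (1 to 4), and 2 lower under the same 3 settings other than DESeq2 (2 to 8). Against WT they numbered 5 lower with the block (5 to 10) and 6 to 8 higher. Deviations of same-numbered WT and Foxp3-deficient libraries had correlations of 0.157, 0.102, 0.0289 and 0.203, other same-numbered pairs -0.0524 to 0.0622 and differently numbered pairs -0.261 to 0.188. All 4 of those WT and Foxp3-deficient correlations were positive, and 1 was under 0.1. They do not settle whether the numbers pair the libraries, since a differently numbered WT and Foxp3-deficient pair reached 0.188. The main fit did not pair the libraries, and shared mice cannot be told from the labels. With the replicate block Mvd (0.40) and Sqle (0.44) passed as higher in double-deficient than Foxp3-deficient cells, and Scd2 and Mylip did not pass against WT. Replicate number 2 occurs only in the double-deficient group and number 1 only in WT and Foxp3-deficient cells. The block therefore leaves double-deficient replicate 2 out of these differences. Mvd and Sqle also passed without Foxp3-deficient replicate 1, and Scd2 and Mylip also did not pass against WT without double-deficient replicate 2. Depth limits Scd1 and Fads2, which were not tested.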
